A study of Mus musculus with 12 samples.

Results

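The genes described here are 48 replication and mitosis genes, the usual transcriptional signs of a dividing cell, followed in sorted B cells of the mouse spleen. They were taken as a fixed list of symbols, with no threshold on a measured value, though earlier results of these data were known when the list was made. All 48 were found among the 43629 genes of the deposited count table, and all 48 passed the filter on low counts in both comparisons. By role, 21 act in S phase (9 in origin licensing, 6 at the replication fork, 4 in nucleotide synthesis and the 2 E cyclins) and 27 in G2 and M phase (cyclins and Cdk1, mitotic kinases, spindle, centromere and chromosome proteins).

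RNA sequencing covered 12 libraries in 3 groups of 4. Zfp36l1-deficient marginal zone (MZ) B cells carried Zfp36l1fl/flERT2cre/+ (replicates 1, 2, 7 and 8), control MZ B cells carried ERT2cre/ERT2cre (replicates 3, 4, 5 and 6), and follicular (FO) B cells carried Zfp36l1fl/fl cre- (replicates 3, 4, 7 and 8); the strain label of all 12 is Zfp36l1tm1.1Tnr. ERT2cre is a tamoxifen-dependent Cre, and the sources used here give neither its promoter, nor an induction scheme, nor the age of the animals. The MZ groups therefore differ in ERT2cre dose as well as in the Zfp36l1 allele. Cells were sorted as B220+CD93+ in both gates, with high CD21 and no CD23 for MZ cells and with CD21 and CD23 for FO cells. MZ cells sit at the edge of the follicle and answer blood-borne antigens quickly, FO cells recirculate, and both subsets are mostly out of cycle; Zfp36l1 is an RNA-binding protein that binds AU-rich elements and hastens mRNA decay. Whether each library came from its own animal is not stated, and p-values then cover only the spread between these libraries, which may be technical.

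Cell cycle genes are switched on in waves. E2F factors turn on the genes for licensing and copying DNA as a cell leaves G1, and E2F with the MuvB complex holds them down in resting cells. The MuvB complex with B-Myb and FoxM1 turns on the mitotic genes later, through a promoter sequence called the cell cycle genes homology region (CHR), often spaced a few helical turns from CCAAT boxes that bind NF-Y. Mitotic mRNAs and proteins are then removed as the cell divides, so a population with few cycling cells holds little of them.

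Of 6 members shown here, Cdk1, Ube2c, Kif11, Cdc6 and Rrm2 rose in deficient over control MZ cells by the test given below, and Mcm5 did not pass it. Their promoter stretches serve as examples. They were read from RefSeq (GRCm38.p6) from 190 to 10 bases before the annotated start, 5′ to 3′ along the gene, with capitals marking each match to the CHR (TTTGAA or TTCGAA), the E2F element (TTTCCCGC, TTTGGCGC or TTTCGCGC) or the CCAAT box on either strand. Their positions are Cdk1 chr10:69352922-69353102 (minus strand), Ube2c chr2:164769739-164769919 (plus strand), Kif11 chr19:37376192-37376372 (plus strand), Cdc6 chr11:98907961-98908141 (plus strand), Rrm2 chr12:24708064-24708244 (plus strand) and Mcm5 chr8:75109319-75109499 (plus strand). The first bases of the Cdc6 stretch and the last bases of the Cdk1, Ube2c and Rrm2 stretches lie in exons of the GENCODE models.
Cdk1: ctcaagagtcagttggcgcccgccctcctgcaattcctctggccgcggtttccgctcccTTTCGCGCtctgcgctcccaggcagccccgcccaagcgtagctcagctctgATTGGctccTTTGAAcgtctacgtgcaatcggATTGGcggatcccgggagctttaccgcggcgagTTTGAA
Ube2c: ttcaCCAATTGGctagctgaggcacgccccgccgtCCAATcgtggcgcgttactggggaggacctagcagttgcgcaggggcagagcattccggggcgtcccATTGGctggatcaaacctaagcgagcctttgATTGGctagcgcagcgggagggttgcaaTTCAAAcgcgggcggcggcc
Kif11: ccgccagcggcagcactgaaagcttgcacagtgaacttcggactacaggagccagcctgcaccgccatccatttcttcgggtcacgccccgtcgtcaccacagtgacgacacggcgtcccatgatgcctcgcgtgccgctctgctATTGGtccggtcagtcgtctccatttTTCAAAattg
Cdc6: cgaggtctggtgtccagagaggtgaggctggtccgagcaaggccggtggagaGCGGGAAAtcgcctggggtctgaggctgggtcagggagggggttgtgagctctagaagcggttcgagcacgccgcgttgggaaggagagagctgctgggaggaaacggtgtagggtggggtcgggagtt
Rrm2: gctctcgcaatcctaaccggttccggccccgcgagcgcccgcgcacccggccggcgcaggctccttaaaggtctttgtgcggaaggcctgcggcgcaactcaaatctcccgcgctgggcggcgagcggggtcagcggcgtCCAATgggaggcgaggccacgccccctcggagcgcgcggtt
Mcm5: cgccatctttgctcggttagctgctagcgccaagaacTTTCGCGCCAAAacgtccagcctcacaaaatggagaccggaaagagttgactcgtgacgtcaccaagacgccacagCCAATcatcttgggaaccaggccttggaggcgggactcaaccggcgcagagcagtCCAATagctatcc
Cdk1 holds 2 CHR matches (71 to 66 and 15 to 10 bases before the start), 2 CCAAT boxes and an E2F element, while Ube2c (29 to 24 bases before the start) and Kif11 (19 to 14) hold a CHR near the start with CCAAT boxes upstream of it. Cdc6 holds an E2F element, Mcm5 holds 2 E2F matches that overlap each other and 2 CCAAT boxes, and Rrm2 holds a CCAAT box alone. A match describes letters only, not a bound site.

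Of the 48 members, 38 have an entry in the RefSeq promoter table (250 bases before to 50 after the start); Gins1, Gins2, Gmnn, Mcm4, Ccne2, Ccna2, Aurkb, Kif20a, Tpx2 and Stmn1 have none. The motifs divided the members by phase. A CHR was found in 18 of 22 G2 and M phase promoters (81.8%) and in 3 of 16 S phase promoters (18.8%), beside 21.7% of all 27025 promoters. The 3 S phase genes with one were Mcm2, Mcm7 and Cdc45, and the 4 mitotic genes without one were Ccnb1, Birc5, Nusap1 and Cenpe. An E2F element was found in 7 of 16 S phase promoters (43.8%; Cdc6, Cdt1, Mcm3, Mcm5, Mcm6, Mcm7 and Uhrf1) and in 1 of 22 mitotic ones (Cdk1), beside 2.12% of all promoters. CCAAT boxes were common throughout, at 20 of 22, 11 of 16 and 41.1% of all promoters. CHR and CCAAT occurred together in 18 of 22 mitotic promoters, 3 of 16 S phase promoters and 9.65% of all. Matches of different motifs overlapped in 1 member promoter.

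**Figure D1:**
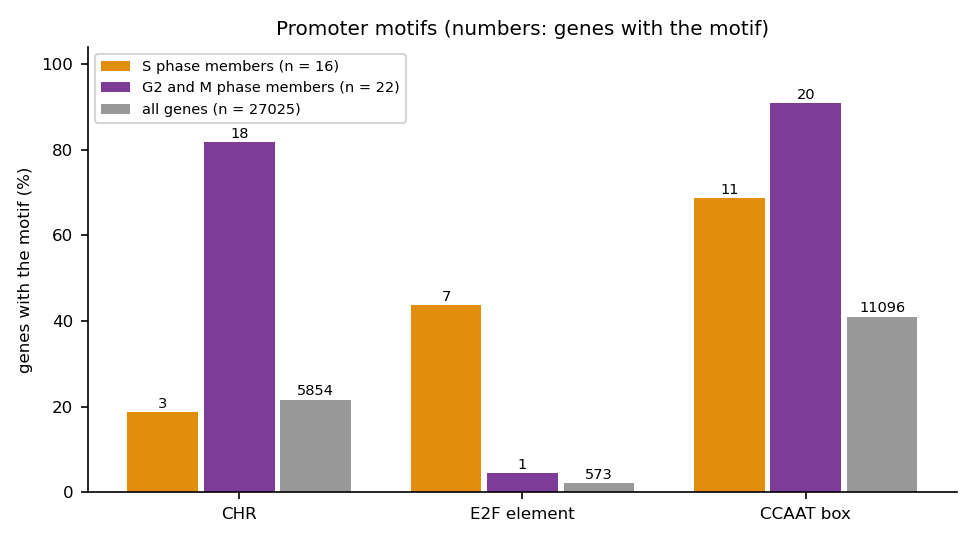
Share of promoters (y axis, percent) that hold each motif on either strand, for S phase members (n = 16), G2 and M phase members (n = 22) and all genes with a RefSeq promoter (n = 27025); numbers over the bars count genes. The CHR is in 18 of 22 mitotic promoters and the E2F element in 7 of 16 S phase promoters.

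The libraries held 28938453 to 40664963 counts. Levels are in CPM, the counts of a gene relative to library size, with library sizes scaled by TMM over all 12 libraries. Zfp36l1 itself averaged 29.7 ± 6.49 CPM in deficient cells and 117 ± 6.99 CPM in control cells (SD, n = 4 each) and 372 ± 17.5 CPM in FO cells (SD, n = 4), lower in deficient than in control cells (log2 change −1.98, SE 0.13, edgeR adjusted p = 4.92e-07), so the labels and the targeted gene go together. Markers followed the sort. In control MZ cells set against FO cells, 7 of 7 MZ markers were called higher and 6 of 6 FO markers lower. Of all genes tested, 42.6% were called higher and 38.8% lower there. Cd93, the gene of a marker that both gates are labelled positive for, averaged 0.677 ± 0.279 CPM in control MZ cells and 19.7 ± 2.48 CPM in FO cells (SD, n = 4 each). Among the members, FO replicate 4 stood apart from the other FO libraries: it was the highest of the 4 for 34 of 48 members, and its mitotic members lay at a median of 1.65 times the mean of the other 3, against 0.98 for all genes. What changed in the FO comparison without it is given beside the results on Mki67 and Top2a.

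Deficient MZ cells held more mRNA of some mitotic and a few S phase genes than control MZ cells, and no member was called lower. Of the 48 members, 8 were called higher and 0 lower (edgeR quasi-likelihood test, adjusted p under 0.05 over all genes tested); among all 13987 genes tested, 2.29% were called higher and 1.4% lower (3.7% in all). DESeq2 called 13 members higher and 0 lower, beside 4.04% and 3.46% of the genes it gave an adjusted p, and the authors' deposited table gave the same counts of members, beside 4.12% and 3.51% of its genes. The called members were Ube2c, Cdk1, Stmn1, Rrm2, Ccna2, Cdc6, Birc5 and Kif11, with log2 changes of 0.83 to 1.68. The median log2 change over the 48 members was 0.35, beside −0.0037 over all genes tested, and 37 members had a positive and 11 a negative value. Deficient libraries all lay above control libraries for 11 members, and all lay below for 0, beside 5.97% and 5.65% of all genes. Most called members act late in the cycle: 6 of 27 G2 and M phase members were called (median log2 change 0.44, 22 of 27 positive), against 2 of 21 S phase members (median 0.074, 15 of 21 positive). The difference between the phases was not tested. In bulk RNA, more cells that express a gene and more RNA of it per cell cannot be told apart.

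**Figure D2:**
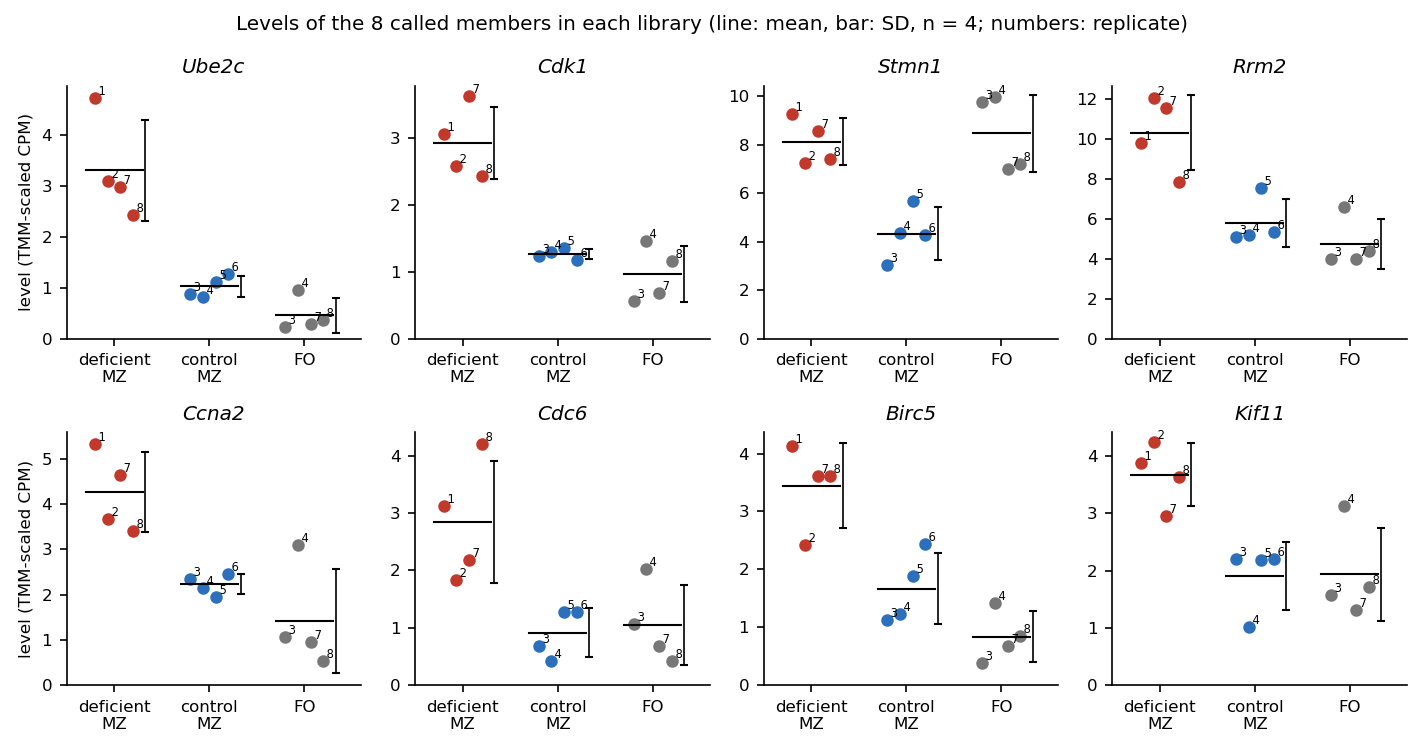
Level (y axis, TMM-scaled CPM) of the 8 members called in deficient against control MZ cells, in each library of deficient MZ, control MZ and FO cells; points are libraries with their replicate number, lines the mean and bars the SD (n = 4). Deficient and control libraries overlap for Birc5 alone, and FO replicate 4 is the highest FO library in all 8 panels.

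Among the origin licensing genes, 1 of 9 was called. Cdc6, the ATPase that loads the MCM helicase onto origins (chr11:98907801-98923940, plus strand), was at 3.12, 1.83, 2.18 and 4.21 CPM in deficient replicates 1, 2, 7 and 8, against 0.687, 0.425, 1.28 and 1.27 CPM in control replicates 3, 4, 5 and 6. Every deficient library lay above every control library, though the deficient ones spread widely around their mean. Means were 2.84 ± 1.07 CPM in deficient cells and 0.915 ± 0.428 CPM in control cells (SD, n = 4 each), and the gene rose (log2 change 1.62, SE 0.35, adjusted p = 0.0200). Its call was lost without control replicate 3, control replicate 4 or deficient replicate 8. The helicase that Cdc6 loads had small values. None of Mcm2 to Mcm7 was called, with log2 changes of −0.04 to 0.24. Mcm4, the most abundant licensing gene per kilobase of exon, was at 80.2, 86.6, 91.6 and 82.1 CPM in the deficient libraries, against 82.6, 80.5, 96.9 and 88.2 CPM in the control libraries. These groups overlapped throughout (log2 change −0.038, SE 0.07, adjusted p = 0.819). Mcm5 was the MCM gene whose groups did not overlap, at 46.6 ± 3.22 CPM in deficient cells and 39.7 ± 0.775 CPM in control cells (SD, n = 4 each), and it missed the threshold (log2 change 0.22, SE 0.07, adjusted p = 0.105). The licensing cofactor Cdt1 (log2 −0.027, adjusted p = 0.908) and its inhibitor geminin, Gmnn (log2 −0.13, adjusted p = 0.545), were not called.

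Of the 6 genes of fork assembly and upkeep, 0 were called, and 6 of 6 had a positive log2 change. Pcna, the sliding clamp of DNA polymerases and the most abundant of them per kilobase, was at 58.6, 50.7, 46.6 and 50.03 CPM in the deficient libraries, against 45.7, 44.4, 48.4 and 44.2 CPM in the control libraries. Its groups overlapped (log2 change 0.16, SE 0.08, adjusted p = 0.265). Uhrf1, which brings the maintenance methyltransferase to newly copied DNA, had the highest value of the group (log2 change 0.51, SE 0.18, adjusted p = 0.138), with control libraries between 9.22 and 18.5 CPM. Cdc45 and Gins1, parts of the active helicase, had log2 changes of 0.35 and 0.28 (adjusted p = 0.326 and 0.547), and Mcm10 and Gins2 lay at 0.05 and 0.06.

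In nucleotide synthesis, 1 of 4 genes was called. Rrm2, the S phase subunit of ribonucleotide reductase (chr12:24708241-24714146, plus strand), was at 9.82, 12.1, 11.6 and 7.88 CPM in the deficient libraries, against 5.10, 5.17, 7.57 and 5.36 CPM in the control libraries. The lowest deficient library lay just above the highest control library, replicate 5. Means were 10.3 ± 1.90 CPM in deficient cells and 5.80 ± 1.18 CPM in control cells (SD, n = 4 each), and Rrm2 rose (log2 change 0.83, SE 0.16, adjusted p = 0.0133). Its partner subunit Rrm1 did not pass the test (log2 −0.097, adjusted p = 0.591). Tk1, the thymidine salvage kinase and the most abundant of the 4 per kilobase, was at 53.2, 55.6, 60.8 and 58.2 CPM in the deficient libraries, against 55.8, 57.2, 52.2 and 49.9 CPM in the control libraries, with overlapping groups (log2 change 0.074, SE 0.08, adjusted p = 0.640). Thymidylate synthase, Tyms, stood at 10.3 ± 1.14 CPM in deficient cells and 10.5 ± 0.335 CPM in control cells (SD, n = 4 each), without a call (log2 −0.036, adjusted p = 0.894).

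The kinase that drives entry into mitosis rose with its S and G2 phase cyclin. Of the 7 genes of this group, Cdk1 and Ccna2 were called. Cdk1 (chr10:69335146-69352938, minus strand) was at 3.06, 2.58, 3.62 and 2.42 CPM in the deficient libraries, against 1.23, 1.30, 1.35 and 1.17 CPM in the control libraries. The 4 control libraries were nearly level and all deficient libraries lay well above them. Means were 2.92 ± 0.538 CPM in deficient cells and 1.26 ± 0.0799 CPM in control cells (SD, n = 4 each), 2.31-fold apart (log2 change 1.21, SE 0.21, adjusted p = 0.00667). Ccna2, cyclin A2 (chr3:36564865-36572150, minus strand), was at 5.33, 3.67, 4.64 and 3.41 CPM in the deficient libraries, against 2.35, 2.15, 1.95 and 2.46 CPM in the control libraries. The groups did not overlap, and the change was called (log2 change 0.93, SE 0.19, adjusted p = 0.0166), except without control replicate 4. The B cyclins, which pair with Cdk1 for mitosis itself, were not called: Ccnb2 stood at 3.91 ± 1.05 CPM in deficient cells and 2.26 ± 0.873 CPM in control cells (SD, n = 4 each; log2 change 0.79, SE 0.26, adjusted p = 0.113) and Ccnb1 had a log2 change of 0.19 (adjusted p = 0.720). Ccne1, the E cyclin of S phase entry, was higher in every deficient library than in any control library, at 11.1, 12.3, 12.8 and 10.9 CPM in the deficient libraries, against 7.68, 6.66, 9.13 and 10.2 CPM in the control libraries, and just missed the threshold (log2 change 0.48, SE 0.14, adjusted p = 0.0649), while Ccne2 was not called (log2 0.0022, adjusted p = 0.997). Cdc25b, a phosphatase that activates Cdk1 and the most abundant of the 7 per kilobase, had a negative value without a call, at 29.2, 26.4, 28.5 and 30.6 CPM in the deficient libraries, against 30.7, 34.6, 34.5 and 30.2 CPM in the control libraries (log2 change −0.19, SE 0.08, adjusted p = 0.228).

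Of the 7 mitotic kinase and checkpoint genes, Birc5 was called. It encodes survivin, which holds Aurora B in the chromosomal passenger complex (chr11:117849250-117855740, plus strand), and was at 4.14, 2.42, 3.62 and 3.61 CPM in the deficient libraries, against 1.13, 1.22, 1.88 and 2.44 CPM in the control libraries. Control replicate 6 reached just above deficient replicate 2, and the other deficient libraries lay above all control libraries. Means were 3.45 ± 0.729 CPM in deficient cells and 1.67 ± 0.614 CPM in control cells (SD, n = 4 each), and the change was called (log2 change 1.04, SE 0.26, adjusted p = 0.0422), but not in 6 of the 8 fits that left out 1 library. Aurkb, the Aurora kinase of the same complex and the most abundant of the 7 per kilobase, was at 13.0, 14.5, 16.4 and 17.3 CPM in the deficient libraries, against 8.98, 10.9, 11.1 and 14.0 CPM in the control libraries. Deficient replicate 1 lay below control replicate 6, and the test was not passed (log2 change 0.44, SE 0.14, adjusted p = 0.0961). Plk1, a kinase of mitotic entry and spindle assembly, had a large but uneven difference, at 4.49, 1.47, 3.99 and 2.49 CPM in the deficient libraries, against 1.30, 1.06, 1.57 and 1.85 CPM in the control libraries. It missed the threshold (2.14-fold, SE 0.31 on the log2 scale, adjusted p = 0.0676), with deficient replicate 2 inside the control range. The checkpoint kinase genes Bub1 (log2 0.82), Bub1b (0.39) and Ttk (−0.18) and the spindle kinase gene Aurka (0.46) were not called, with adjusted p between 0.126 and 0.821.

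The anaphase-promoting complex marks mitotic proteins for destruction, and its ubiquitin-conjugating enzyme gave the largest log2 change of all 48 members. Ube2c (chr2:164769900-164778820, plus strand) was at 4.72, 3.08, 2.97 and 2.42 CPM in deficient replicates 1, 2, 7 and 8, against 0.883, 0.823, 1.11 and 1.27 CPM in control replicates 3, 4, 5 and 6. No control library came near the lowest deficient library. Means were 3.30 ± 0.990 CPM in deficient cells and 1.02 ± 0.207 CPM in control cells (SD, n = 4 each), 3.21-fold apart (log2 change 1.68, SE 0.25, adjusted p = 0.00197). Of the Ube2c exon bases, 22.8% lie under exons of the other strand, and the sources used here do not say whether counting used strand. In the same way, exons of the other strand overlap 67.3% of the exon bases of Gins2, 29.3% in Kif20a, 17.4% in Ccne2, 12.5% in Ccna2 and 11.1% in Prc1, and 1.60% to 8.70% in Mcm7, Plk1, Cdc45, Nusap1, Cdc20, Cdc25b and Tk1. Without strand such reads cannot be told apart. The activator of the complex, Cdc20, was at 8.34, 8.001, 6.61 and 10.8 CPM in the deficient libraries, against 5.13, 4.70, 8.34 and 7.11 CPM in the control libraries. Its groups overlapped and it was not called (log2 change 0.41, SE 0.19, adjusted p = 0.256).

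Of 8 spindle and cytokinesis genes, Stmn1 and Kif11 were called. Stmn1, stathmin, a protein that destabilises microtubules (chr4:134468320-134473840, plus strand), was at 9.27, 7.22, 8.56 and 7.40 CPM in the deficient libraries, against 3.02, 4.35, 5.66 and 4.27 CPM in the control libraries. All deficient libraries lay above all control libraries (log2 change 0.90, SE 0.17, adjusted p = 0.0121). Kif11, the motor that pushes the spindle poles apart (chr19:37376403-37421859, plus strand), was at 3.88, 4.25, 2.95 and 3.64 CPM in the deficient libraries, against 2.21, 1.01, 2.19 and 2.21 CPM in the control libraries. The groups did not overlap, and control replicate 4 lay well below the other 3 control libraries. The call (log2 change 0.94, SE 0.24, adjusted p = 0.0466) was kept in 1 of the 8 fits that left out a library, the one without deficient replicate 7. Tpx2, which activates Aurora A on the spindle, and Hmmr, a spindle pole protein, also had groups that did not overlap, without a call (log2 0.50, adjusted p = 0.129 for Tpx2; log2 0.92, adjusted p = 0.140 for Hmmr). The genes of the central spindle and cleavage did not pass the test: Kif20a had a log2 change of 0.42 (adjusted p = 0.246), Nusap1 of 0.22 (0.402), Prc1 of −0.03 (0.936) and Kif23 of −0.26 (0.339).

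None of the 3 centromere genes was called. Cenpa, the histone variant that marks centromeres and the most abundant of them per kilobase, was at 17.3, 12.5, 14.4 and 14.7 CPM in the deficient libraries, against 9.93, 10.9, 13.7 and 11.3 CPM in the control libraries. Control replicate 5 lay above deficient replicate 2 (log2 change 0.36, SE 0.12, adjusted p = 0.133). Cenpe and Cenpf, proteins of the kinetochore, had log2 changes of 0.38 and 0.75 (adjusted p = 0.495 and 0.360). Mki67, which codes for the antigen Ki-67, the usual protein marker of cycling cells, was at 5.22, 5.25, 8.15 and 7.05 CPM in the deficient libraries, against 5.20, 4.62, 9.57 and 7.80 CPM in the control libraries. Deficient and control libraries covered nearly the same range (log2 change −0.084, SE 0.22, adjusted p = 0.874). Top2a, the topoisomerase that untangles chromosomes, was at 13.9, 13.3, 14.8 and 8.65 CPM in the deficient libraries, against 9.34, 8.60, 10.7 and 11.2 CPM in the control libraries. Deficient replicates 1, 2 and 7 lay above all control libraries and replicate 8 near the lowest of them, and no call was made (log2 change 0.34, SE 0.15, adjusted p = 0.249).

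**Figure D3:**
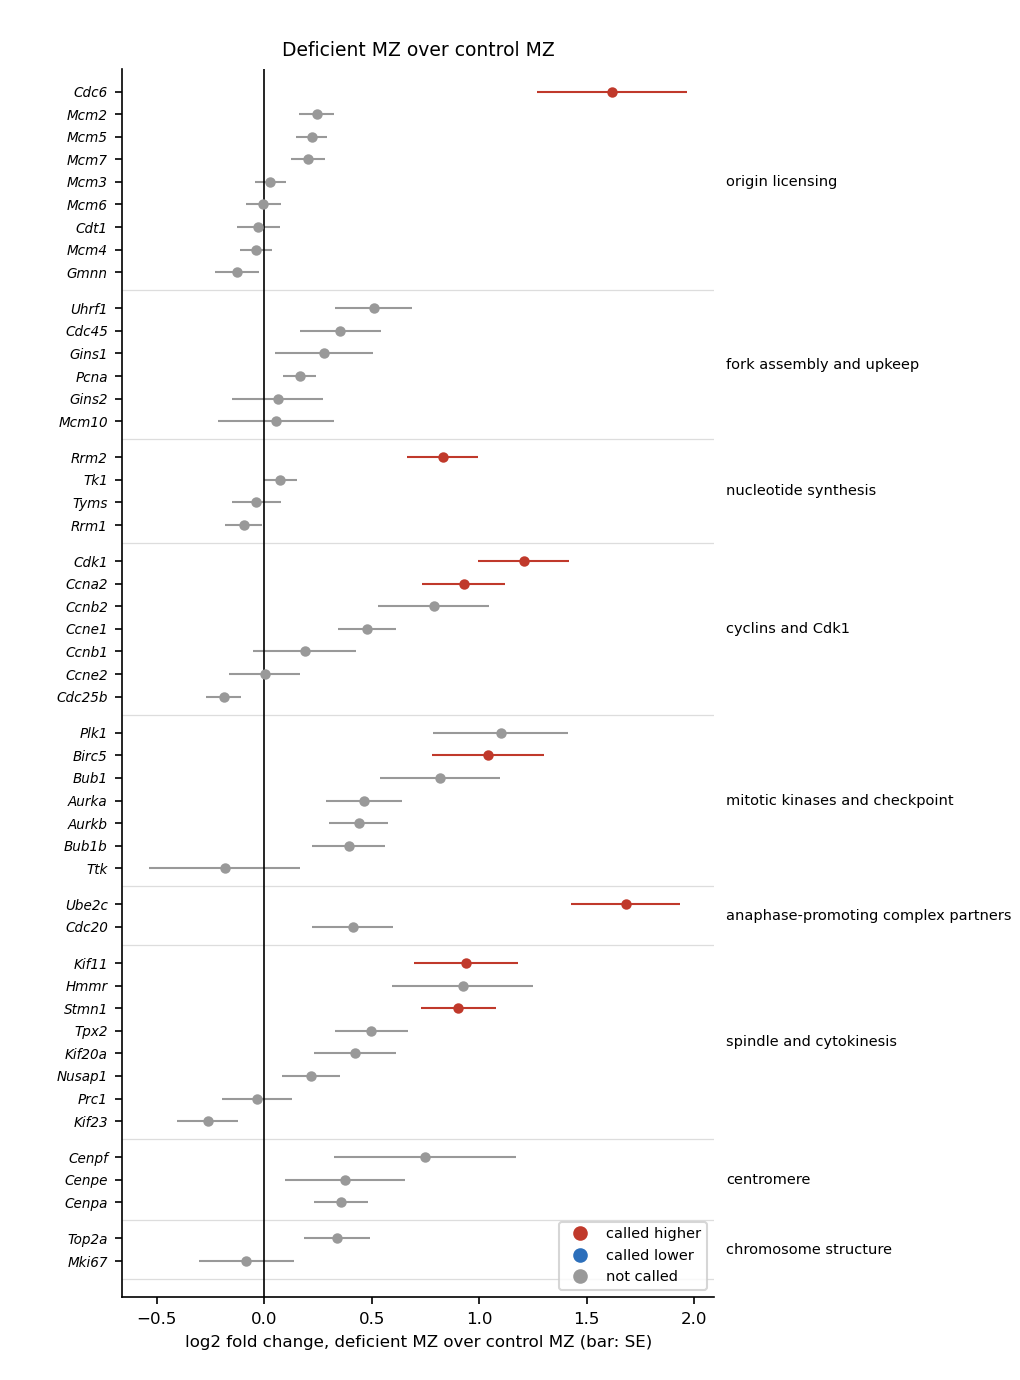
Log2 fold change of deficient over control MZ cells (x axis) for all 48 members, grouped by role; points are edgeR estimates and bars their SE (8 libraries). The 8 called members (red) lie between 0.83 and 1.68, no member is called lower, and Mki67 and the Mcm genes sit near 0.

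Calls and levels depended on single libraries. Leaving out 1 library at a time left 4 to 9 members called higher and 0 lower; Cdk1, Rrm2, Stmn1 and Ube2c were called in all 8 such fits. The count was 5 without control replicate 3, 4 without control replicate 4 and 5 without deficient replicate 8. Summed levels show the same: G2 and M phase members together made up 188, 170, 198 and 183 CPM in deficient replicates 1, 2, 7 and 8, against 130, 138, 171 and 162 CPM in control replicates 3, 4, 5 and 6. Control replicate 5 thus reached the lowest deficient library and replicate 6 came near it, while control replicates 3 and 4 lay far below it. Control replicate 5 was the highest control library for 27 of 48 members, and replicates 3 and 4 the lowest for 16 and 20. Over the mean of the other 3 control libraries, mitotic members had median ratios of 1.18, 0.763 and 0.838 in replicates 5, 3 and 4. All genes tested had 1.03, 0.985 and 0.978 in the same libraries. Highest and lowest libraries were not counted over all genes. S phase members summed to 693 to 750 CPM in deficient and 630 to 735 CPM in control cells.

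Genes of the same programmes that are not members were read from lists of their own. In deficient against control MZ cells, 2.29% of all genes tested were called higher and 1.4% lower. Of 35 other S phase genes 0 were called, with a median log2 change of −0.024. Of 41 other mitosis genes 3 rose and 0 fell, with a median of 0.21: the condensin subunit gene Ncaph (log2 change 0.88, SE 0.21, adjusted p = 0.0314), the spindle protein gene Ckap2l (log2 change 0.91, SE 0.22, adjusted p = 0.0367) and Pbk, which codes for a mitotic kinase (log2 change 1.32, SE 0.32, adjusted p = 0.0372). Of the 11 tested transcription factor genes of these programmes 3 rose. E2f2 averaged 70.0 ± 4.12 CPM in deficient cells and 46.0 ± 3.07 CPM in control cells (SD, n = 4 each; log2 change 0.60, SE 0.07, adjusted p = 3.96e-04), Mybl2, the gene of B-Myb, averaged 15.0 ± 2.16 CPM in deficient cells and 9.71 ± 0.867 CPM in control cells (SD, n = 4 each; log2 change 0.62, SE 0.13, adjusted p = 0.0145), and the low repressor gene E2f8 averaged 1.09 ± 0.406 CPM in deficient cells and 0.261 ± 0.164 CPM in control cells (SD, n = 4 each; log2 change 2.05, SE 0.47, adjusted p = 0.0276). E2f1 and Foxm1 were not called (log2 0.16 and 0.17). Among 14 cell cycle brakes 0 rose and 1 fell, Rbl1, which codes for the pocket protein p107 (log2 change −0.33, SE 0.08, adjusted p = 0.0458).

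Markers of other cells moved in part with the members. Their counts stand beside 2.29% of all genes tested called higher and 1.4% called lower. The 10 matched erythroid markers summed to 26.3, 16.2, 19.0 and 8.10 CPM in deficient replicates 1, 2, 7 and 8, against 1.59, 2.02, 12.2 and 4.65 CPM in control replicates 3, 4, 5 and 6, and 1 of 7 tested, the globin gene Hbb-bt, was called higher (log2 change 1.44, SE 0.38, adjusted p = 0.0491). The median log2 change of these 7 was 1.84, with 6 of 7 positive, the 4 globin genes, Alas2 and Slc4a1, and Klf1 negative. Control replicate 5, the highest control library for most members, was also the highest control library for erythroid markers. Klf1, a transcription factor of erythroid precursors, averaged 0.315 ± 0.0501 CPM in deficient cells and 0.457 ± 0.0859 CPM in control cells (SD, n = 4 each), and Car1 was under 0.1 CPM in both groups. T and NK cell markers summed to 2.46 to 4.78 CPM in deficient and 1.20 to 1.80 CPM in control cells, with Cd8a and Tcf7 called higher and with 4 of 9 markers, Ncr1 among them, under 0.1 CPM in each group. Of 7 B-1 cell markers 4 were called higher, Bhlhe40, Ahnak, Nid1 and Zbtb32, while Cd5, Spn and Itgam were not called and 2 of 7 had negative values. The B-1 list summed to 78.8 to 87.3 CPM in deficient, 39.5 to 47.5 CPM in control MZ and 225 to 315 CPM in FO cells. Among 6 macrophage markers tested 1 was called higher, Adgre1 (sums 25.6 to 33.6 CPM in deficient and 23.5 to 28.2 CPM in control cells). Of 6 FO cell markers 5 were called higher, Klf2 with the smallest p (log2 change 1.87, SE 0.10, adjusted p = 1.64e-07), and MZ cell markers were mixed, with 2 of 7 higher and 1 lower. Germinal centre (0 of 5 tested), immature B cell (0 of 2), platelet (0 of 5) and general B cell markers (0 of 7) were not called, plasma cell markers had 0 higher and 1 lower (Irf4), and no granulocyte marker was abundant enough to be tested. The part of these cells in the members' results was not tested.

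In control MZ cells set against FO cells the members went both ways. The spindle genes Nusap1 and Prc1, the licensing inhibitor gene Gmnn, the cyclin gene Ccne2 and the thymidylate synthase gene Tyms were 2.79- to 5.03-fold higher in control MZ cells, and the phosphatase gene Cdc25b, the centromere gene Cenpa and the helicase gene Gins1 were 2.11- to 3.19-fold lower. Of 48, 19 were called higher and 11 lower in control MZ cells, beside 42.6% and 38.8% of all 13843 genes tested. DESeq2 also called 19 higher and 11 lower, beside 36.0% and 29.7% of the genes it gave an adjusted p, and so did the authors' deposited table, beside 36.1% and 29.6% of its genes. The members called, 62.5%, are thus fewer than the 81.5% called among all genes, and a count of calls here says little about the members. Control MZ libraries all lay above FO libraries for 11 members and all below for 10, beside 39.1% and 37.5% of all genes. The median log2 change was 0.36 (all genes 0.055), with −0.051 over S phase members (7 higher, 6 lower) and 0.53 over G2 and M phase members (12 higher, 5 lower). Summed levels of G2 and M phase members went the other way, at 130 to 171 CPM in control MZ and 202 to 237 CPM in FO libraries. The sums averaged 150 CPM in control MZ and 219 CPM in FO cells. Within them Cdc25b alone averaged 32.5 CPM in control MZ and 105 CPM in FO cells, a gap no smaller than that between the sums. S phase members summed to 630 to 735 CPM in control MZ and 676 to 709 CPM in FO libraries. MZ libraries were made from SMARTer cDNA and read as pairs, FO libraries with a stranded TruSeq kit and single reads, and the floxed allele and ERT2cre differ as well, so cell type, kit, layout and genotype cannot be told apart in any value of this comparison. Both comparisons use the same 4 control MZ libraries. Leaving out 1 library at a time left 12 to 22 members higher and 9 to 11 lower, with 12 higher without FO replicate 7 or 8. In these 8 fits the call of Aurka was lost in 7, those of Hmmr and Mcm10 in 6 each, those of Birc5, Bub1 and Mcm2 in 5 each, that of Ube2c in 3 and those of Cenpe, Cdc20 and Kif20a in 2 each; the other calls were kept in all 8.

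**Figure D4:**
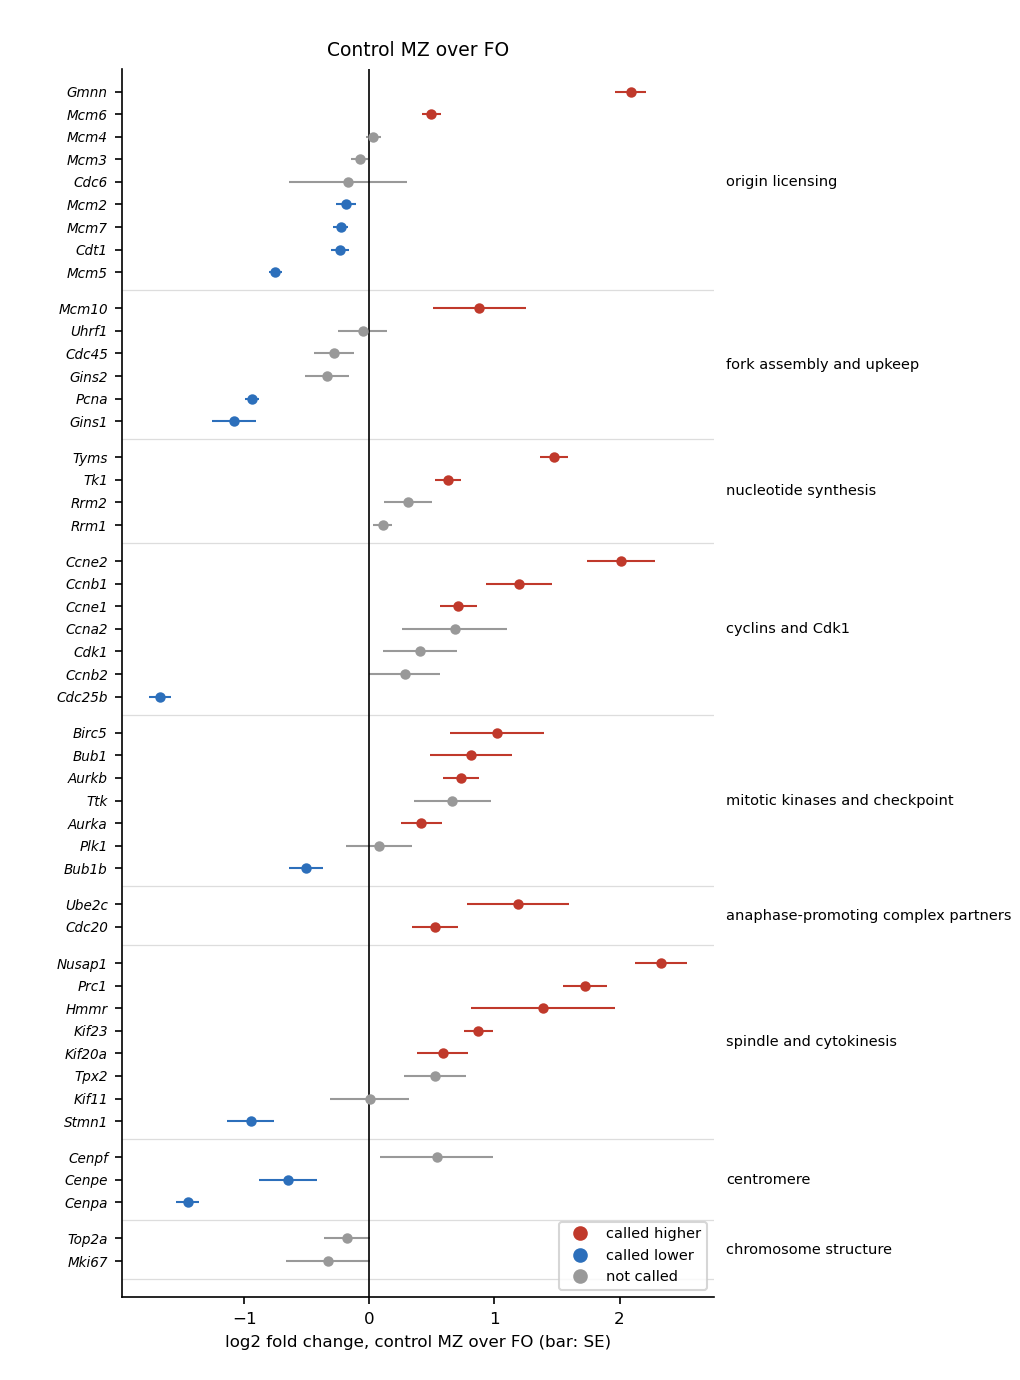
Log2 fold change of control MZ over FO cells (x axis) for all 48 members, grouped by role; points are edgeR estimates and bars their SE (8 libraries). The 19 members called higher (red) and 11 called lower (blue) occur side by side in most role groups, from Nusap1 at 2.33 to Cdc25b at −1.67.

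Licensing genes split into 2 called higher and 4 lower of 9, beside 42.6% and 38.8% of all genes tested. Gmnn, which blocks a further round of licensing, was at 24.4, 24.8, 32.9 and 30.1 CPM in control MZ libraries, against 7.54, 7.16, 6.58 and 5.48 CPM in FO libraries. The groups were far apart, and Gmnn was higher in control MZ cells (log2 change 2.09, SE 0.12, adjusted p = 1.04e-08). Within the MCM ring the subunits went separate ways: Mcm6 averaged 91.3 ± 11.4 CPM in control MZ cells and 65.7 ± 2.51 CPM in FO cells (SD, n = 4 each; log2 change 0.50, SE 0.07, adjusted p = 4.45e-05), whereas Mcm5 averaged 39.7 ± 0.775 CPM in control MZ cells and 67.9 ± 3.12 CPM in FO cells (SD, n = 4 each; log2 change −0.75, SE 0.05, adjusted p = 3.31e-08). Both groups of libraries were tight for Mcm5, at 39.3, 38.8, 40.4 and 40.3 CPM in control MZ libraries, against 71.4, 64.1, 69.1 and 67.2 CPM in FO libraries. The ring is built from equal copies of its subunits, and Mcm2 and Mcm7 were called lower with small changes (log2 −0.19 and −0.23), Mcm3 and Mcm4 not called (−0.08 and 0.03). Cdt1 was lower (log2 −0.24, adjusted p = 0.00759), and Cdc6 was not called (log2 −0.17, adjusted p = 0.745).

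At the fork, 1 of 6 genes was called higher and 2 lower, beside 42.6% and 38.8% of all genes tested. Pcna was at 45.7, 44.4, 48.4 and 44.2 CPM in control MZ libraries, against 84.1, 97.2, 86.0 and 88.3 CPM in FO libraries. Every FO library held far more than any control MZ library (log2 change −0.94, SE 0.06, adjusted p = 1.46e-08); GENCODE lists pseudogenes of Pcna, so reads could be split. Gins1 followed, at 1.60 ± 0.228 CPM in control MZ cells and 3.44 ± 0.346 CPM in FO cells (SD, n = 4 each; log2 change −1.08, SE 0.17, adjusted p = 9.03e-05), and the replication initiation gene Mcm10 was higher in control MZ cells by a narrow margin (log2 change 0.88, SE 0.37, adjusted p = 0.0437). Cdc45, Gins2 and Uhrf1 were not called (log2 −0.29, −0.34 and −0.05), though every FO library lay above every control MZ library for Gins2. Nucleotide synthesis had 2 of 4 genes higher and 0 lower. Tyms was at 10.3, 11.0, 10.2 and 10.5 CPM in control MZ libraries, against 3.34, 3.74, 4.13 and 4.09 CPM in FO libraries, with no overlap (log2 change 1.48, SE 0.11, adjusted p = 1.02e-07; GENCODE lists a Tyms pseudogene). Tk1 was at 55.8, 57.2, 52.2 and 49.9 CPM in control MZ libraries, against 37.4, 26.7, 38.4 and 38.8 CPM in FO libraries, higher in each control MZ library than in each FO library (log2 change 0.63, SE 0.10, adjusted p = 1.19e-04). Rrm2, called in deficient cells, was not called here (log2 0.31, adjusted p = 0.153). Its partner Rrm1 was not called either (log2 0.11, adjusted p = 0.201).

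Among cyclins and Cdk1, 3 of 7 were higher and 1 lower, beside 42.6% and 38.8% of all genes tested. Cdc25b had the smallest p of the group, at 30.7, 34.6, 34.5 and 30.2 CPM in control MZ libraries, against 94.1, 96.9, 105 and 125 CPM in FO libraries. FO cells held more than any MZ library of either genotype (log2 change −1.67, SE 0.09, adjusted p = 2.84e-09). The E cyclins were higher in control MZ cells, with Ccne2 at 3.41, 3.10, 3.08 and 3.63 CPM in control MZ libraries, against 0.536, 1.23, 0.520 and 1.02 CPM in FO libraries (log2 change 2.01, SE 0.27, adjusted p = 2.05e-05) and Ccne1 at 8.42 ± 1.57 CPM in control MZ cells and 5.22 ± 0.596 CPM in FO cells (SD, n = 4 each; log2 change 0.71, SE 0.15, adjusted p = 7.48e-04). Ccnb1 was higher as well (log2 1.20, adjusted p = 0.00112), whereas Cdk1, Ccna2 and Ccnb2 were not called (log2 0.41, 0.68 and 0.28).

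Of the mitotic kinase and checkpoint genes, 4 of 7 were higher and 1 lower, beside 42.6% and 38.8% of all genes tested. Aurkb was at 8.98, 10.9, 11.1 and 14.0 CPM in control MZ libraries, against 6.09, 7.73, 7.37 and 6.25 CPM in FO libraries. The groups did not overlap (log2 change 0.73, SE 0.14, adjusted p = 4.36e-04). Bub1b, which codes for the checkpoint protein BubR1, was lower (log2 change −0.50, SE 0.14, adjusted p = 0.00458), and Birc5 higher with overlapping groups (log2 change 1.02, SE 0.38, adjusted p = 0.0250). Aurka and Bub1 were also called higher with overlapping groups (log2 0.42 and 0.81), and Plk1 and Ttk were not called (log2 0.08 and 0.66). Both anaphase-promoting complex partners were higher, Ube2c at 0.883, 0.823, 1.11 and 1.27 CPM in control MZ libraries, against 0.221, 0.950, 0.275 and 0.369 CPM in FO libraries (log2 change 1.19, SE 0.41, adjusted p = 0.0174) and Cdc20 at 6.32 ± 1.71 CPM in control MZ cells and 4.45 ± 0.471 CPM in FO cells (SD, n = 4 each; log2 change 0.53, SE 0.18, adjusted p = 0.0177). FO replicate 4 lay within the control MZ range for Ube2c and the other FO libraries below it; without that library the log2 change of Ube2c was 1.82 (SE 0.34, adjusted p = 3.87e-04).

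Spindle and cytokinesis genes were called higher in 5 of 8 cases and lower in 1, beside 42.6% and 38.8% of all genes tested. Nusap1, which bundles microtubules near chromosomes, was at 10.1, 9.98, 13.0 and 15.1 CPM in control MZ libraries, against 1.74, 3.45, 2.11 and 2.42 CPM in FO libraries. This was the largest difference among the members, 5.03-fold, and no libraries overlapped (log2 change 2.33, SE 0.21, adjusted p = 4.94e-07). Prc1, which cross-links the central spindle, and its partner Kif23 were higher too, at 7.66 ± 1.43 CPM in control MZ cells and 2.36 ± 0.371 CPM in FO cells (SD, n = 4 each) for Prc1 (log2 change 1.72, SE 0.17, adjusted p = 1.55e-06) and 8.12 ± 0.799 CPM in control MZ cells and 4.51 ± 0.304 CPM in FO cells (SD, n = 4 each) for Kif23 (log2 change 0.87, SE 0.12, adjusted p = 1.85e-05). Stmn1 was lower in control MZ cells, at 3.02, 4.35, 5.66 and 4.27 CPM in control MZ libraries, against 9.75, 9.94, 6.98 and 7.22 CPM in FO libraries (log2 change −0.95, SE 0.19, adjusted p = 5.52e-04). Deficient MZ cells, at 8.11 ± 0.972 CPM, and FO cells, at 8.47 ± 1.59 CPM (SD, n = 4 each), thus both held more Stmn1 than control MZ cells. Kif20a and Hmmr were called higher with overlapping groups (log2 0.59 and 1.39), and Kif11 and Tpx2 were not called (log2 0.002 and 0.53). Of the centromere genes 2 of 3 were lower, and Cenpf was not called (log2 0.54). Cenpa was at 9.93, 10.9, 13.7 and 11.3 CPM in control MZ libraries, against 33.8, 30.9, 31.8 and 30.7 CPM in FO libraries (log2 change −1.45, SE 0.09, adjusted p = 1.72e-08), and Cenpe was lower with overlapping groups (log2 change −0.65, SE 0.23, adjusted p = 0.0218).

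Mki67 and Top2a were not called in this comparison either. Mki67 was at 5.20, 4.62, 9.57 and 7.80 CPM in control MZ libraries, against 5.90, 15.8, 7.83 and 5.12 CPM in FO libraries (log2 change −0.33, SE 0.33, adjusted p = 0.373), and Top2a at 9.34, 8.60, 10.7 and 11.2 CPM in control MZ libraries, against 9.37, 16.9, 9.55 and 10.03 CPM in FO libraries (log2 change −0.18, SE 0.18, adjusted p = 0.381). For both genes FO replicate 4 was the highest of all 12 libraries. FO replicate 4 was more than 1.5 times the mean of the other 3 FO libraries for 15 of 27 G2 and M phase members (55.6%) and 4 of 21 S phase members, beside 7.50% of all genes tested. The other FO libraries had median mitotic ratios of 0.835 to 0.840. In FO replicate 4 the erythroid markers summed to 7.54 CPM, against 1.89 to 2.02 CPM in the other 3, and the macrophage markers to 34.1 CPM, against 14.9 to 17.96 CPM; their part in its mitotic levels was not tested. Without FO replicate 4, 22 members were called higher and 9 lower. Of these 31, 27 were among the 30 called with it: Ccna2, Rrm2, Tpx2 and Ttk were gained, and Aurka, Cenpe and Mcm2 lost. Leaving it out moved the log2 change of Hmmr to 2.46 (with it 1.39), that of Birc5 to 1.39 (with it 1.02) and that of Mcm10 to 1.30 (with it 0.88). Mki67 and Top2a then lay at 0.12 and 0.060 (adjusted p = 0.643 and 0.642), of the other sign than with it and again without a call.

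Companion genes in control MZ against FO cells also split. Of all genes tested, 42.6% were called higher and 38.8% lower, 81.5% in all. The share called was 62.9% of other S phase genes and 58.5% of other mitosis genes. Of 35 other S phase genes 12 were called higher and 10 lower (median log2 change −0.045), of 41 other mitosis genes 16 higher and 8 lower (median 0.42), of 14 brakes 6 higher and 6 lower, and of 11 transcription factor genes 5 higher and 4 lower. Summed levels of the other mitosis genes were 486 to 550 CPM in control MZ and 691 to 725 CPM in FO libraries, opposite to their median. Other S phase genes summed to 789 to 875 CPM in control MZ and 1041 to 1111 CPM in FO libraries. E2f1 averaged 17.0 ± 2.56 CPM in control MZ cells and 3.84 ± 0.937 CPM in FO cells (SD, n = 4 each; log2 change 2.17, SE 0.17, adjusted p = 1.37e-07) and E2f2 46.0 ± 3.07 CPM in control MZ cells and 106 ± 12.9 CPM in FO cells (SD, n = 4 each; log2 change −1.18, SE 0.08, adjusted p = 5.22e-08). Germinal centre markers, which mark dividing B cells, were called lower in 5 of 6 tested cases and summed to 39.1 to 41.1 CPM in control MZ and 190 to 212 CPM in FO cells, most of it Bcl6. Immature B cell markers were lower in 2 of 2 and platelet markers higher in 5 of 5; macrophage markers were higher in 4 of 7 and lower in 1, erythroid markers higher in 1 of 4 (Klf1), T and NK cell markers higher in 1 and lower in 1 of 3, B-1 cell markers higher in 1 and lower in 3 of 7, and plasma cell markers higher in 3 and lower in 3 of 6. The part of such cells in the members' results was not tested.

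**Figure D5:**
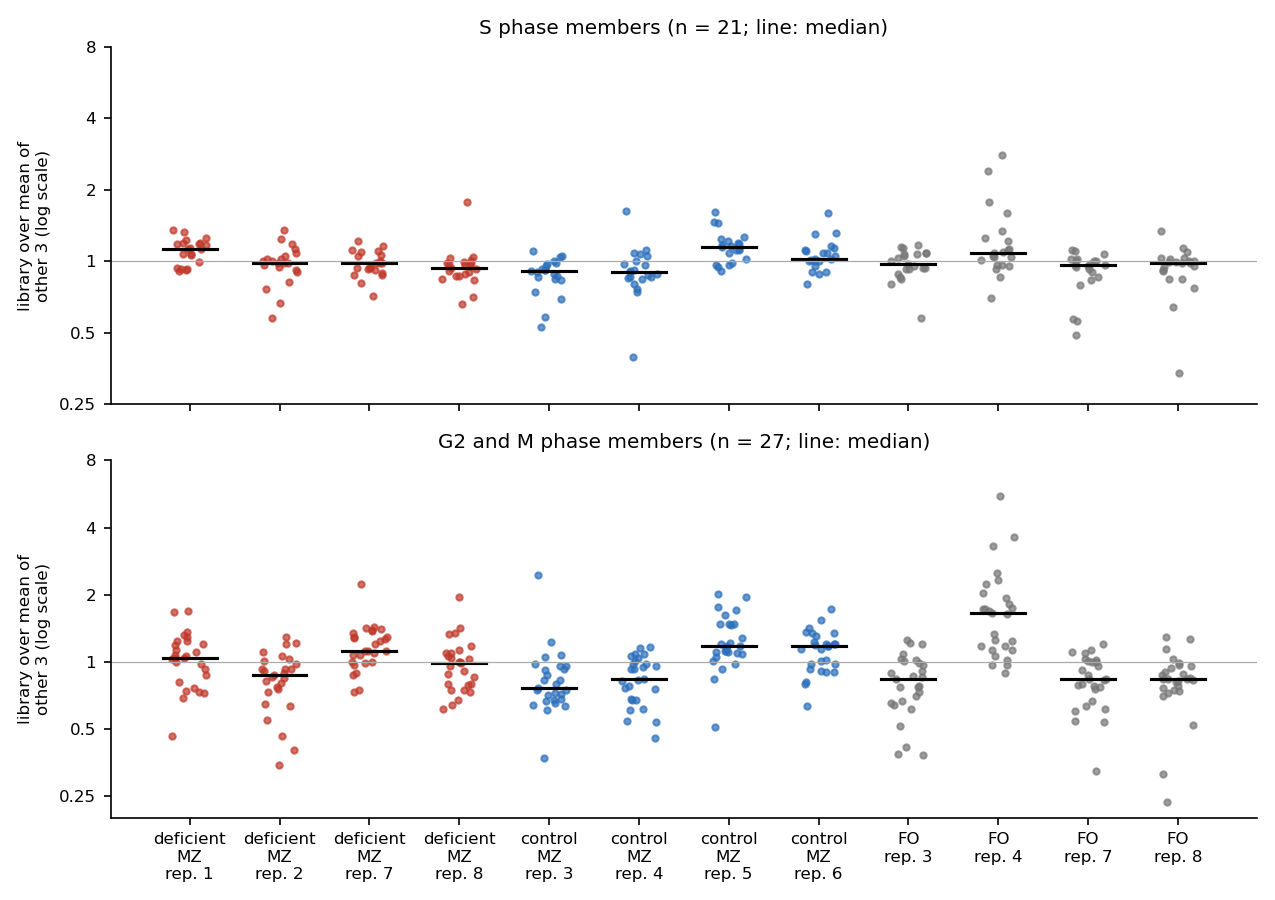
Each member's level in 1 library over the mean of the other 3 libraries of its group (y axis, log scale), for S phase members (upper panel) and G2 and M phase members (lower panel) in all 12 libraries; lines are medians. FO replicate 4 lies apart for the mitotic members, at a median of 1.65, and control MZ replicates 3 and 4 lie lowest among control libraries.

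Levels compared between genes, per kilobase of exon, put the median licensing gene far above the median mitotic gene in all 3 groups. Licensing genes had a median of 14.4 CPM per kilobase in deficient MZ, 13.7 in control MZ and 14.8 in FO cells, and G2 and M phase members had 1.08 in deficient MZ, 0.931 in control MZ and 0.570 in FO cells. Single genes crossed this order: Cdc6 lay below the mitotic median in every group, and Cdc25b, at 28.2 CPM per kilobase in FO cells, above every licensing gene there. Mcm4 was the most abundant member in both MZ groups, at 23.7 CPM per kilobase in deficient and 24.3 in control cells, and Pcna in FO cells, at 37.0. Cenpf was the least abundant in all groups, at 0.118, 0.0700 and 0.0492 CPM per kilobase in deficient MZ, control MZ and FO cells. Mitotic members varied more between libraries than S phase members: the median coefficient of variation over 4 libraries was 19.0% in deficient MZ, 23.6% in control MZ and 30.3% in FO cells for mitotic members, and 9.41% in deficient MZ, 12.5% in control MZ and 9.58% in FO cells for S phase members. Without FO replicate 4 the FO medians were 14.3% for mitotic and 5.78% for S phase members. Single members overlapped widely, at 3.84% to 108% for mitotic and 2.13% to 67.0% for S phase members over the 4 FO libraries. S phase members also had higher median levels, at 5.82, 6.20 and 4.57 CPM per kilobase in deficient MZ, control MZ and FO cells. The part of read depth in the spread of mitotic members was not tested.

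Because Zfp36l1 acts on AU-rich sequences, the heptamer TATTTAT was looked up in the annotated 3′ ends of the members. It was found in 12 of 48, beside 29.3% of the 11408 tested genes with an annotated 3′ untranslated region. Of the 8 called members, Cdc6, Ccna2 and Birc5 have it. These 25-base stretches (GRCm38, GENCODE M21, capitals marking the heptamer, T for U) are at chr11:98921867-98921891 (plus strand) in Cdc6, chr3:36565688-36565712 (minus strand) in Ccna2 and chr11:117853587-117853611 (plus strand) in Birc5, the middle of 3 overlapping matches.
Cdc6: ttgtgaataTATTTATtttcaagtt
Ccna2: gagacatttTATTTATcaactttaa
Birc5: ttttttattTATTTATttatttttt
The called members Ube2c, Cdk1, Stmn1, Rrm2 and Kif11 hold no match, and Mcm2, Mcm5, Cdc45, Ccne2, Ccnb1, Bub1, Prc1, Cenpe and Cenpf hold one without a call in deficient cells.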

How the data were processed

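RNA was sequenced from 12 sorted libraries, 4 per group. The submitters' processing notes name the build GRCm38 and the tools TopHat2 2.0.12, DESeq2 1.10.1, Trim Galore and HTSeq. Annotation release, counting mode and strand setting: the sources used here give none of them. The kit and read layout of FO libraries come from the design text alone, because the labels' protocol gives SMARTer throughout. The authors deposited raw counts as integers for Ensembl gene IDs, a column for each library, and 0 columns were left unmapped. The mean signal, log2 fold changes, Wald statistic (a score) and p-values of the authors' deposited DESeq2 tables were used only to count the authors' calls among the members, and the deposited normalised values were not used. No library columns were identical (0), and the chi-square per gene between replicates of a group, near 1 under sampling noise alone, was 5.78 to 48.6. The closest pairs were FO replicates 7 and 8 (5.78) and control MZ replicates 3 and 4 (6.48). Other FO pairs lay at 17.4 to 25.9 and other control MZ pairs at 17.7 to 22.8. Deficient MZ replicate 1 lay furthest off, at 34.9, 48.6 and 25.9 from deficient replicates 2, 7 and 8, whose own pairs lay at 12.7 to 15.9. That library was the highest deficient library for 18 of 48 members and the lowest for 11. Control MZ replicates 3 and 4 also had the lowest summed mitotic levels of the control libraries. Whether close libraries share an animal or a preparation is not stated and was not tested.

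Of the gene IDs, 42548 matched GENCODE M21, which gave symbols, coordinates and exon lengths; all 48 members matched. The test was edgeR's quasi-likelihood test (edgeR 4.0.16 under R 4.3.3) on TMM-scaled counts, after filterByExpr removed genes with few counts; p-values were adjusted by Benjamini-Hochberg over all genes tested, and a call is an adjusted p under 0.05. Only the 8 libraries of a comparison entered its fit, with a biological coefficient of variation of 0.123 for MZ cells and 0.104 for control MZ and FO cells. Levels are TMM-scaled CPM with the SD over 4 libraries, and levels between genes are per kilobase of merged exons. The procedure was run on simulated counts with the same spread for all genes and with independent libraries. That run cannot show how calls behave where libraries shift together or genes differ in their spread. The members and lists were chosen with earlier results of these data known, so no p is given over a list. Values per library are given for members called in deficient MZ cells, the most abundant member per role, Mki67, Top2a, and the called members of each role with the smallest p in control MZ against FO cells, in part as means; other members are given as values or ranges, and other members with values near the threshold were chosen after their values were seen. DESeq2 1.42.0 was an alternative test.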

Additional observations from a re-analysis of the deposited data

Results flagged for a closer look

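A library was looked at again where its gap to the nearest of the other 3 libraries of its group took up most of the group's range. Among 153 sets of 4 libraries this picked out 9 values, and chance picks about 1 in 20 sets. FO replicate 4 gave 5 of them. It was the highest FO library for Rrm2 (6.59 CPM, the others 3.98 to 4.40), Ccnb2 (2.75 CPM, the others 1.48 to 1.65), Tpx2 (3.04 CPM, the others 1.53 to 1.61) and Top2a (16.9 CPM, the others 9.37 to 10.03), and the lowest for Tk1 (26.7 CPM, the others 37.4 to 38.8).

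Control MZ replicate 5 was the highest control library for Rrm2 (7.57 CPM, the others 5.10 to 5.36) and Ccnb2 (3.57 CPM, the others 1.74 to 1.90). Control MZ replicate 4 was the lowest for Kif11 (1.01 CPM, the others 2.19 to 2.21). Deficient MZ replicate 8 was the highest deficient library for Kif20a (7.43 CPM, the others 5.42 to 5.70).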

How the results depend on the processing

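In deficient against control MZ cells, DESeq2 size factors kept the same 8 calls, no filter on low counts added Plk1, and DESeq2's own test called 13 members higher and 0 lower (Aurkb, Ccnb2, Ccne1, Mcm5 and Plk1 added), as many as the authors' deposited table. A fit on all 12 libraries called 8, of which 5 were shared: Birc5, Ccna2 and Kif11 were lost and Ccne1, Mcm5 and Plk1 gained. Genes called lower numbered 307 without the filter, 476 with DESeq2 (557 higher) and 343 in the fit of all 12 libraries, against 196; the cause was not tested. Leaving out 1 library gave 4 to 9 members higher, 0 to 0 lower, a median of 0.27 to 0.39, and 171 to 293 genes higher and 82 to 190 lower. No paired analysis was possible because deficient and control MZ libraries share no replicate number.

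In control MZ against FO cells, leaving out 1 library gave 12 to 22 members higher, 9 to 11 lower, a median of 0.22 to 0.50, and 5834 to 6091 genes higher and 5267 to 5398 lower. DESeq2 called the same 30 members, and the authors' deposited table also called 19 higher and 11 lower. Numbers 3 and 4 occur in both groups, but the genotypes differ. The deviations of same-numbered libraries correlated at −0.048 and −0.113, and those of differently numbered ones at −0.076 and 0.048. Whether same-numbered libraries share a preparation is not stated, and so few pairs cannot show it. A fit with the replicate number as a block in effect compared control MZ replicates 3 and 4 with FO replicates 3 and 4 alone. The other numbers occur in a single group, and FO replicate 4 is the library that stood apart. With this block 9 members were higher and 14 lower, 23 in all with 19 shared, and the median was 0.045. No called member changed direction in any of these fits (0 of 8 and 0 of 30); among members not called, 10 of 40 in deficient against control MZ cells and 9 of 18 in control MZ against FO cells had the other sign in at least 1. Low members carry few reads, which limits how small a change could be called.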
